A study of Mus musculus with 64 samples.

Results

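The dual-specificity MAP kinase phosphatases described here are 9 mouse genes, Dusp1, Dusp2, Dusp4, Dusp5, Dusp6, Dusp7, Dusp8, Dusp10 and Dusp14, which were chosen by their gene symbols with drug effects in these same libraries already known. Those earlier effects had singled out Dusp5 and Dusp6 in the prefrontal cortex after mianserin. The 9 genes are among 46686 gene names in the expression tables and hold 21 of the 112714 annotated transcripts, and all 9 genes and 21 transcripts passed the filter on low values. The libraries are ribosomal RNA-depleted total RNA from the nucleus accumbens (NAc) and the prefrontal cortex (PFCx) of adult male C57BL/6N mice aged 8 to 10 weeks, taken 2 h after 1 intraperitoneal injection. Haloperidol was given at 1 mg/kg, risperidone at 0.5 mg/kg, methamphetamine at 2 mg/kg, mianserin at 20 mg/kg, venlafaxine at 16 mg/kg and ketamine at 20 mg/kg, each with 4 libraries per tissue. Saline has 8 libraries per tissue, 4 labelled saline I and 4 labelled saline II. Haloperidol and risperidone were dissolved in saline with a drop of hydrochloric acid, and whether the saline controls held it is not given in the sources used here, so that vehicle and drug cannot be told apart. The labels do not say which libraries share a mouse, so the errors below measure the spread between libraries.

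MAP kinases are switched on by phosphorylation of a threonine and a tyrosine, and these phosphatases switch them off by removing both phosphates. Several of the genes are themselves switched on within minutes to hours of MAP kinase activity, so that they act as negative feedback. Dusp1, Dusp2, Dusp4 and Dusp5 encode nuclear enzymes, of which Dusp5 is selective for ERK. Dusp6 and Dusp7 encode cytoplasmic enzymes selective for ERK, while Dusp8 and Dusp10 act mainly on JNK and p38. Dusp14 encodes a small enzyme without the docking domain of the others.

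On GRCm38 the files place Dusp1 at chr17:26505590-26508519 on the minus strand, Dusp2 at chr2:127336159-127338376 on the plus strand, Dusp4 at chr8:34807297-34819894 (plus), Dusp5 at chr19:53529109-53542431 (plus) and Dusp6 at chr10:99263231-99267488 (plus). Dusp7 lies at chr9:106368632-106375724 (plus), Dusp8 at chr7:142079490-142095843 (minus), Dusp10 at chr1:184013302-184075636 (plus) and Dusp14 at chr11:84048041-84069261 (minus).

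Promoters were found in the RefSeq table of GRCm38.p6 for 8 of the 9 genes, all but Dusp4, and searched over the 250 bases before the RefSeq start site, on both strands. The sequences of Dusp1, Dusp5 and Dusp6 are shown because, of these 8 genes, they had the most differences from saline. Bases inside an annotated exon were left out. Capitals mark the cyclic AMP response element TGACGTCA, its shorter form TGACG (which the full element contains) and the serum response element known as the CArG box. No other motif searched, AP-1 (TGANTCA) or EGR (GCGNGGGCG), was found in these windows. The Dusp1 sequence covers chr17:26508520-26508722 (minus strand), that of Dusp5 chr19:53528895-53529108 and that of Dusp6 chr10:99262981-99263230 (both plus strand), written 5′ to 3′.
Dusp1: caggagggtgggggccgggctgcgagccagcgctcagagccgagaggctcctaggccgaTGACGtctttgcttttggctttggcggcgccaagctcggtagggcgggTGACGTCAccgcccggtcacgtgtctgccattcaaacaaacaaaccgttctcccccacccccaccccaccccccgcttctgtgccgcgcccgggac
Dusp5: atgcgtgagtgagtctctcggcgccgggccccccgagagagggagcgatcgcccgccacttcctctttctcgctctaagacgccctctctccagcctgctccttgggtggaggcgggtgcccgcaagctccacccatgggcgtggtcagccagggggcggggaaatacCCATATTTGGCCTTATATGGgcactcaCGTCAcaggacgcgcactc
Dusp6: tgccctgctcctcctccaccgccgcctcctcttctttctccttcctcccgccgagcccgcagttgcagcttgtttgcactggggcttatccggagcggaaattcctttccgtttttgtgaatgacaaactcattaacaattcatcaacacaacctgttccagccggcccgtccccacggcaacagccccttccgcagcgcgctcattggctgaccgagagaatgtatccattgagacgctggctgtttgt

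The Dusp1 window held 1 full cyclic AMP response element and 1 further short form, and the Dusp5 window held a pair of adjacent CArG boxes and 1 short form on the opposite strand. The Dusp6 window held none of the motifs. Over the 8 genes, the full element was in 2 (Dusp1 and Dusp8), the short form in 3, the CArG box in 1 (Dusp5), EGR in 1 (Dusp2) and AP-1 in 0. Of 32851 promoters of the same length, 1.55% held the full element, 17.8% the short form, 1.47% the CArG box, 4.70% EGR and 6.75% AP-1. A match of letters is a description of the sequence and not of a bound factor.

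The values are FPKM (a read level scaled to the length of the transcript and the number of mapped reads), summed over the transcripts of a gene in each library. The tables hold no read counts, and the depth estimated from the coverage was 1.52 to 3.26 aligned gigabases (median 2.39). Median coverage of the members, in reads over each base, ran in the NAc from 0.310 for Dusp2 to 33.6 for Dusp14. In the NAc, the 16 libraries of haloperidol, risperidone, methamphetamine and saline set I listed 85287 to 87827 transcripts above 0 and the 16 libraries of mianserin, venlafaxine, ketamine and saline set II 107099 to 110556. These are called sample set I and sample set II, and the labels give a set for saline only. They do not part in the PFCx (108556 to 110852 over both), and each drug lies in 1 set only, so a drug effect rests on the saline libraries chosen. Saline set II differed from set I in 24.8% of the 36989 genes tested in the NAc and in 9.20% in the PFCx. Of the 9 members, Dusp6 (-0.32 ± 0.11, adjusted p = 0.0359) and Dusp8 (-0.25 ± 0.09, adjusted p = 0.0360) were lower in set II of the NAc by limma, and none was called in the PFCx. Each drug was therefore set against all 8 saline libraries and, as a second value, against the 4 of its own sample set.

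The tissue labels were checked with marker genes. The summed FPKM of 8 markers of medium spiny neurons was 503 to 692 in the saline NAc and 22.2 to 70.4 in the saline PFCx, and that of 6 markers of cortical projection neurons 25.4 to 71.9 and 170 to 222. None of these 14 genes was at 0 on average in the saline libraries of either tissue. In bulk tissue, a change in the number of cells of a type and a change in RNA per cell cannot be told apart.

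Which phosphatases were expressed in each tissue was read first from the saline libraries, a comparison the choice of genes did not use. Dusp6, Dusp7 and Dusp14 were higher in the PFCx than in the NAc, and no saline library of either tissue overlapped with the other for them. Dusp8 was lower in the PFCx, and Dusp1, Dusp2, Dusp4, Dusp5 and Dusp10 were not called. Over all genes tested, 37.1% were called higher and 8.59% lower in the PFCx, so the 3 of 9 members called higher and the 1 of 9 called lower were shares near the background. With every library rescaled to the same 75th percentile of its genes above 0, 6 members were called higher and 0 lower. As deposited, the median difference over all genes was 0.10 on the log2 scale, and under that rescaling it was 0.19. The share of all genes called was not computed under that rescaling, so the 6 have no background beside them.

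Dusp6, the cytoplasmic ERK phosphatase, had a lowest, median and highest FPKM of 3.21, 3.76 and 5.61 in the 8 saline libraries of the NAc and of 6.39, 7.25 and 7.91 in those of the PFCx. Its mean was 1.76-fold higher in the PFCx (7.19 ± 0.505 against 4.09 ± 0.828 FPKM, SD, n = 8, with a difference on the log2(FPKM + 1) scale of 0.70 ± 0.07, adjusted p = 2.56e-11 by limma). Dusp7, its closest relative here, had NAc values of 6.58, 7.83 and 11.2 and PFCx values of 12.3, 15.1 and 21.02, a mean ratio of 1.87 (0.83 ± 0.09, adjusted p = 7.63e-11, limma). Dusp14 had NAc values of 10.5, 12.1 and 13.9 and PFCx values of 15.1, 18.5 and 21.8, a mean ratio of 1.52 (0.56 ± 0.08, adjusted p = 1.64e-08, limma). All 3 were also called within saline set I and within saline set II alone.

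Dusp8, a phosphatase of JNK and p38, went the other way, with NAc values of 9.15, 11.6 and 14.8 FPKM and PFCx values of 8.11, 9.66 and 11.04, and the tissues overlapped. The difference was -0.24 ± 0.08, adjusted p = 0.00772 by limma, but it was -0.10 within saline set II alone (adjusted p = 0.553, limma) and changed sign, to 0.155, when every library was rescaled to the same 75th percentile of its genes above 0. Dusp5 had NAc values of 0.831, 1.046 and 1.33 and PFCx values of 0.689, 0.796 and 0.978 (-0.17 ± 0.07, adjusted p = 0.0579, limma, not called).

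Ordered by the mean FPKM after saline, the NAc ran Dusp14 (12.2 ± 1.07, SD), Dusp8 (11.8 ± 1.77), Dusp7 (8.18 ± 1.42), Dusp6 (4.09 ± 0.828), Dusp1 (3.40 ± 0.603), Dusp5 (1.06 ± 0.206), Dusp10 (0.972 ± 0.319), Dusp4 (0.888 ± 0.1505) and Dusp2 (0.263 ± 0.0977). Ranges of neighbours overlapped except between Dusp7 and Dusp6, Dusp1 and Dusp5, and Dusp4 and Dusp2. In the PFCx the order was Dusp14 (18.5 ± 2.33), Dusp7 (15.3 ± 2.55), Dusp8 (9.74 ± 0.921), Dusp6 (7.19 ± 0.505), Dusp1 (3.80 ± 0.720), Dusp10 (1.048 ± 0.317), Dusp4 (0.857 ± 0.115), Dusp5 (0.832 ± 0.0990) and Dusp2 (0.269 ± 0.1300). There the overlapping neighbours were Dusp14 with Dusp7, Dusp10 with Dusp4, and Dusp4 with Dusp5.

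**Figure D1:**
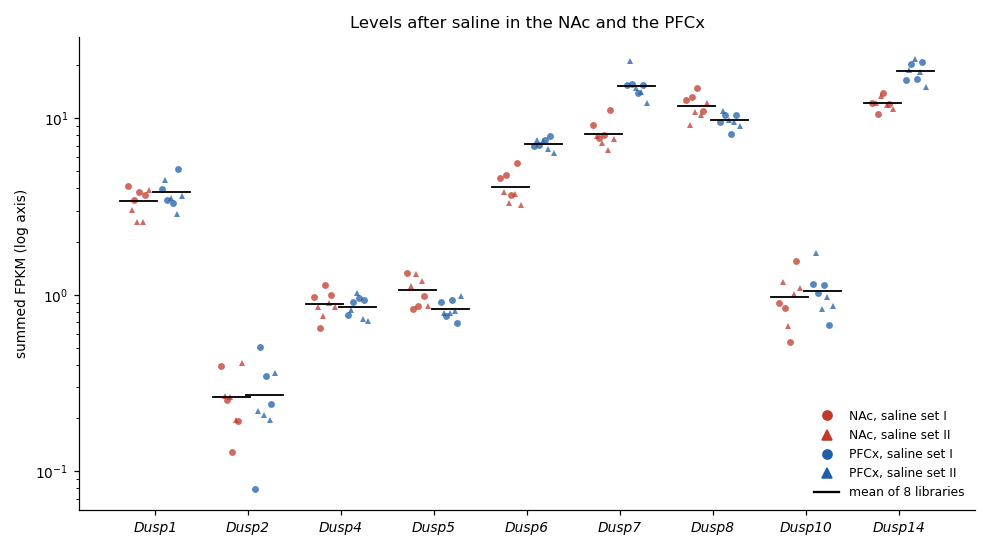
Summed FPKM (log axis) of the 9 phosphatase genes in the 16 saline libraries, red for the NAc and blue for the PFCx, circles for saline set I and triangles for set II, with the mean of 8 libraries as a line. The points of Dusp6, Dusp7 and Dusp14 lie higher in the PFCx without overlap, and Dusp2 is the lowest gene in both tissues (0.263 and 0.269 FPKM).

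The drug effects answer which of the 6 treatments changed these genes 2 h later in each tissue. A difference is called here when its adjusted p from limma, Benjamini-Hochberg over the 36989 genes tested, is under 0.05. Because the genes were chosen with these contrasts known, the differences are a description with no p of their own, and nothing is read from the counts of calls. All differences are drug minus saline on the log2(FPKM + 1) scale with the standard error, which understates fold changes of low genes, and each tissue's drugs share the same 8 saline libraries.

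In the NAc, 12 of the 54 combinations of member and drug were called, 11 higher and 1 lower, and in 10 combinations every drug library lay above every saline library, beside 0.848% of the combinations over all genes. Haloperidol had the most, with 5 of 9 members higher (Dusp1, Dusp4, Dusp5, Dusp6 and Dusp14) beside 0.527% of all genes called higher and 0.195% lower. Methamphetamine had 4 higher (Dusp1, Dusp4, Dusp6 and Dusp14) beside 0.162% higher and 0.0324% lower. Risperidone had 1 (Dusp1, beside 0.443% and 0.284%) and ketamine 1 (Dusp4, beside 1.43% and 0.535%). Venlafaxine had 1 lower (Dusp8, beside 1.10% higher and 0.727% lower). For mianserin no member was called, beside 1.44% higher and 0.411% lower, and 4 of 9 had an unadjusted p under 0.05 in limma, beside 21.3% of all genes.

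The calls in the NAc depended on the scaling. When each library was rescaled to the same 75th percentile of its genes above 0, no member was called after haloperidol, risperidone or methamphetamine, and 6 were called higher after mianserin, 2 after venlafaxine and 3 after ketamine. The share of all genes called was not computed under that rescaling, so these counts have no background beside them. That rescaling moved the median difference over all genes from -0.05 to -0.17 for haloperidol and from 0.04 to 0.18 for mianserin. For haloperidol it left Dusp1 at 0.51, Dusp5 at 0.43, Dusp6 at 0.24, Dusp4 at 0.18 and Dusp14 at 0.15. Rescaled over genes above 0 in every library, an alternative chosen after seeing the data, all calls of the NAc were kept and 1 was added after mianserin. The calls in the PFCx were 14 under either rescaling.

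In the PFCx, 14 of 54 combinations were called, all higher, and in 17 every drug library lay above every saline library, beside 0.465% of the combinations over all genes. Mianserin had 4 of 9 members higher (Dusp1, Dusp4, Dusp5 and Dusp6, beside 0.346% of all genes higher and 0.330% lower), and methamphetamine the same 4 genes (beside 0.270% and 0.0811%). Haloperidol had 3 (Dusp1, Dusp5 and Dusp6, beside 0.124% and 0.0378%) and risperidone the same 3 (beside 0.284% and 0.227%). Venlafaxine had 0 (beside 0.00270% higher and 0.00270% lower), and ketamine had 0 (beside 0.0135% and 0.00270%), with 2 and 3 members at an unadjusted p under 0.05 in limma, beside 7.16% and 8.15% of all genes. Against the saline libraries of the own sample set, 7 combinations were called in the NAc and 11 in the PFCx, all higher, beside 0.166% and 0.184% of the combinations over all genes called higher.

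**Figure D2:**
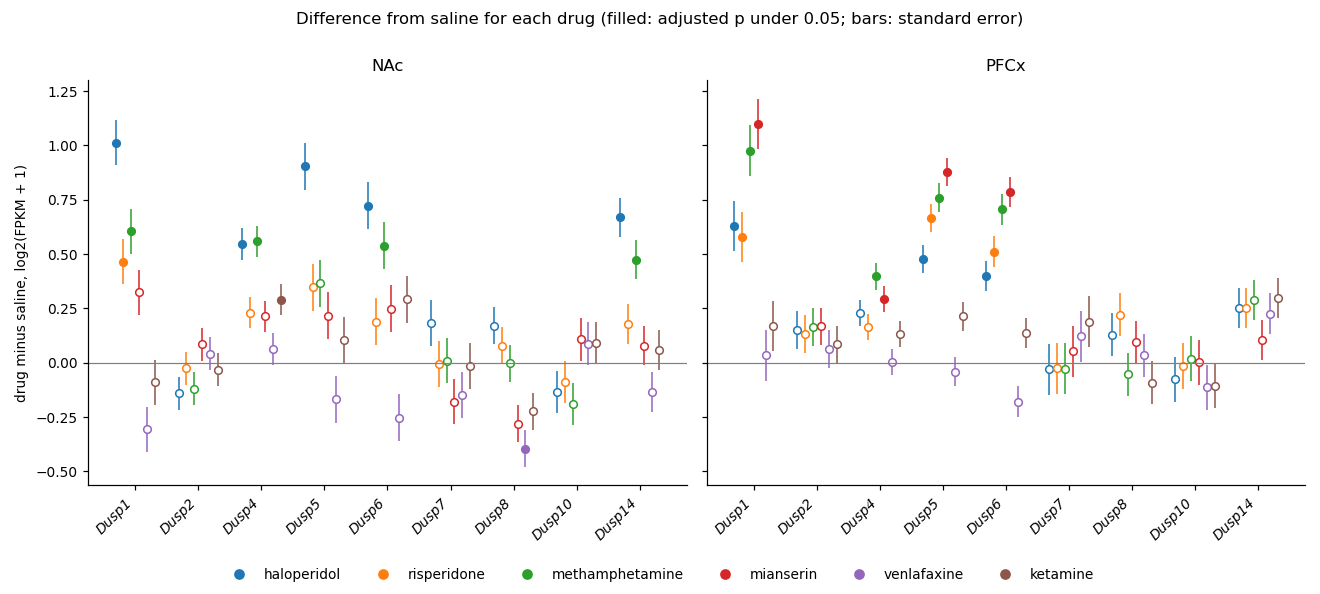
Difference from saline of each of the 9 genes for each of the 6 drugs in the NAc and the PFCx, on the log2(FPKM + 1) scale with standard errors; filled points have an adjusted p under 0.05. In the NAc the haloperidol points of Dusp1, Dusp4, Dusp5, Dusp6 and Dusp14 are filled, from 0.55 to 1.01, and in the PFCx the methamphetamine and mianserin points of Dusp1, Dusp4, Dusp5 and Dusp6, from 0.29 to 1.10.

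Dusp1, the nuclear phosphatase of ERK, JNK and p38 and a well-known immediate early gene, was higher after haloperidol, risperidone and methamphetamine in both tissues and after mianserin in the PFCx. In the NAc the lowest, median and highest saline libraries were at 2.58, 3.55 and 4.13 FPKM. The haloperidol libraries were at 7.62, 7.51, 7.62 and 8.43, the methamphetamine libraries at 5.90, 6.72, 4.24 and 5.91 and the risperidone libraries at 4.67, 5.19, 4.92 and 5.32. All 12 lay above the saline range. The mean after haloperidol was 2.30-fold that of saline (7.80 ± 0.429 against 3.40 ± 0.603, SD, n = 4 and 8, difference 1.01 ± 0.10), and 0.89 ± 0.11 against saline set I.

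The differences of Dusp1 in the NAc were 0.60 ± 0.10 after methamphetamine and 0.47 ± 0.10 after risperidone. Against saline set I alone they were 0.48 ± 0.11 and 0.34 ± 0.11 and were not called. The risperidone call was also lost, at 0.43 to 0.49, without any 1 of the 4 risperidone libraries or without saline set II replicate 1, 2 or 3. Mianserin libraries were at 3.76, 5.14, 4.71 and 4.32 FPKM, venlafaxine libraries at 2.75, 2.57, 2.16 and 2.66 and ketamine libraries at 2.42, 3.64, 2.80 and 3.64, each overlapping saline.

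In the PFCx, Dusp1 ran at 2.87, 3.57 and 5.14 FPKM after saline (lowest, median and highest). It was at 9.57, 8.46, 9.75 and 8.95 after mianserin, at 10.3, 8.38, 6.93 and 8.04 after methamphetamine, at 6.56, 8.11, 5.60 and 5.41 after haloperidol and at 6.52, 6.22, 6.34 and 5.35 after risperidone. All 16 of these libraries were above every saline library. Mean folds were 2.42 for mianserin (1.10 ± 0.12), 2.22 for methamphetamine (0.98 ± 0.12), 1.69 for haloperidol (0.63 ± 0.12) and 1.61 for risperidone (0.58 ± 0.12). Venlafaxine (4.45, 3.76, 2.79 and 4.70 FPKM) and ketamine (4.80, 4.73, 4.44 and 3.52 FPKM) overlapped saline. The haloperidol and risperidone differences were not called against saline set I (0.58 ± 0.14 and 0.53 ± 0.14). They were also lost without haloperidol replicate 1 or 2 (0.53 to 0.62) and without risperidone replicate 1, 2 or 3 (0.55 to 0.57).

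Dusp1 has 3 annotated transcripts, of which ENSMUST00000025025 (4 exons) encodes the protein and ENSMUST00000126178 and ENSMUST00000146077 retain an intron. Cufflinks divides shared reads between them, so their values depend on each other. After saline the coding transcript had 1.47 ± 0.326 FPKM in the NAc and 1.65 ± 0.709 in the PFCx (SD, n = 8), which was 43.3% and 43.4% of the gene. It was the transcript that was called: after haloperidol (4.30 ± 0.557) and methamphetamine (4.03 ± 1.01) in the NAc, and after methamphetamine (5.49 ± 1.15) and mianserin (5.24 ± 1.39) in the PFCx. After haloperidol in the NAc the intron-retaining transcripts stood at 1.54 ± 0.677 (ENSMUST00000126178) and 1.96 ± 0.398 (ENSMUST00000146077), and the latter lay wholly above its saline range of 0.487 to 1.27 at a difference of 0.66 ± 0.15. ENSMUST00000126178 stood at 0.971 ± 0.261 after methamphetamine in the NAc against 1.04 ± 0.313 after saline, and at 1.99 ± 0.831 after mianserin in the PFCx against 1.10 ± 0.506. ENSMUST00000146077 stood at 0.688 ± 0.477 against 0.885 ± 0.318 and at 1.96 ± 0.736 against 1.049 ± 0.194, and neither intron-retaining transcript was called in any of the 12 comparisons. A difference between the coding and the intron-retaining transcripts was not tested. Over all 21 transcripts of the members there were 6 calls in the NAc and 12 in the PFCx, all higher, beside 0.193% and 0.107% of the tests over all transcripts and drugs. The others besides Dusp1 were the single transcripts of Dusp4, Dusp5 and Dusp6.

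**Figure D3:**
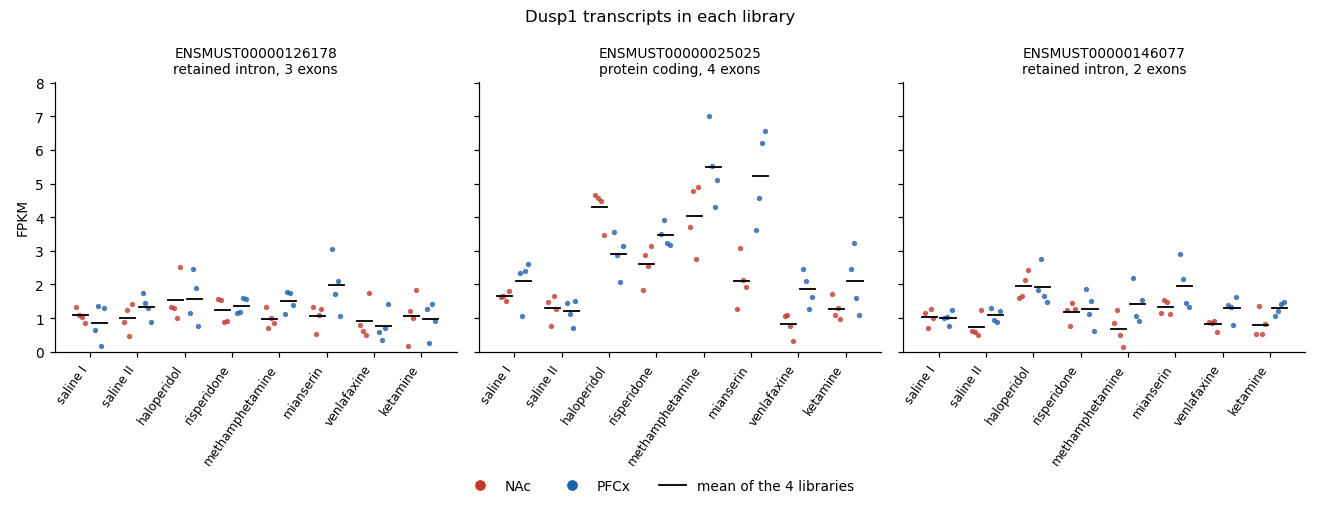
FPKM of the 3 Dusp1 transcripts in each library by treatment, red for the NAc and blue for the PFCx, with the mean of 4 libraries as a line. The middle panel, the coding transcript, reaches means of 5.49 after methamphetamine and 5.24 after mianserin in the PFCx, while the means of the intron-retaining transcripts stay below 2 FPKM.

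Dusp4, a nuclear phosphatase of ERK and JNK with 1 annotated transcript, was near 1 FPKM after saline in both tissues. In the NAc saline ran at 0.647, 0.875 and 1.14 (lowest, median and highest), haloperidol at 1.81, 1.51, 1.69 and 2.01, methamphetamine at 1.80, 1.67, 1.60 and 2.05 and ketamine at 1.27, 1.37, 1.34 and 1.24. These 3 groups lay wholly above saline. The means were 1.98-fold (0.55 ± 0.07), 2.002-fold (0.56 ± 0.07) and 1.47-fold (0.29 ± 0.07) those of saline. The first pair was also called against saline set I (0.51 ± 0.08 and 0.52 ± 0.08), while ketamine was not called against saline set II (0.32 ± 0.08). Ketamine also lost its call, at 0.26 to 0.30, without any 1 of its own 4 libraries or saline set I replicate 1 or 2. Risperidone (1.45, 1.23, 0.814 and 1.41), mianserin (1.28, 1.24, 1.07 and 1.15) and venlafaxine (1.02, 1.02, 1.13 and 0.722) overlapped saline.

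In the PFCx, Dusp4 was at 0.712, 0.861 and 1.02 FPKM after saline. Methamphetamine libraries were at 1.59, 1.35, 1.39 and 1.45 (1.68-fold, 0.40 ± 0.06) and mianserin libraries at 1.56, 1.35, 1.07 and 1.13 (1.49-fold, 0.29 ± 0.06), all above saline. The mianserin call was lost without mianserin replicate 1 or 2 (0.23 to 0.28). Haloperidol (1.19, 1.19, 1.21 and 1.11) and risperidone (1.10, 1.04, 1.12 and 1.04) also lay above every saline library but were not called (0.23 ± 0.06 and 0.16 ± 0.06). Ketamine (0.930 to 1.14) and venlafaxine (0.680 to 1.16) overlapped saline.

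Dusp5, the nuclear phosphatase selective for ERK, also has 1 annotated transcript. On the log2(FPKM + 1) scale Dusp1 had the largest difference from saline in both tissues (1.01 in the NAc and 1.10 in the PFCx). By the ratio of means, Dusp5 had the largest fold of the 9 members in both, at a median coverage of 2.67 and 1.97 reads over each base. In the NAc this was after haloperidol, with 3.30, 2.41, 2.76 and 2.94 FPKM against a lowest, median and highest of 0.831, 1.046 and 1.33 after saline, a mean fold of 2.69 (0.90 ± 0.11, and 0.95 ± 0.13 against saline set I). The groups did not overlap. No other drug was called for it there, and risperidone (1.21, 1.46, 1.90 and 1.94), methamphetamine (1.86, 1.07, 1.75 and 2.002), mianserin (1.29, 1.46, 1.41 and 1.38), venlafaxine (0.749, 0.921, 0.986 and 0.668) and ketamine (0.739, 1.64, 1.63 and 0.969) all overlapped saline.

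In the PFCx, where saline was at 0.689, 0.796 and 0.978 FPKM, Dusp5 stood at 2.76, 2.12, 2.54 and 2.06 after mianserin, at 2.28, 1.97, 2.06 and 2.09 after methamphetamine, at 1.79, 1.95, 1.74 and 2.15 after risperidone and at 1.53, 1.67, 1.62 and 1.37 after haloperidol. None of these 16 libraries overlapped saline. The mean folds were 2.85 (0.88 ± 0.07), 2.52 (0.76 ± 0.07), 2.29 (0.67 ± 0.07) and 1.86 (0.48 ± 0.07). All 4 were also called against the saline of the own sample set. Ketamine, at 1.31, 1.10, 1.10 and 0.986, lay above saline without a call (0.21 ± 0.07), and venlafaxine overlapped it (1.06, 0.884, 0.581 and 0.634).

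Dusp2, a nuclear phosphatase best known from immune cells, was the lowest member. Over the 6 drugs its library values ran from 0.0998 to 0.558 FPKM in the NAc (saline 0.129 to 0.411) and from 0.213 to 0.83 in the PFCx (saline 0.0797 to 0.504). Every drug group overlapped saline and none of its 12 differences was called, at a median coverage of 0.310 reads over each base in the NAc and 0.235 in the PFCx.

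Dusp6, the cytoplasmic phosphatase that ERK activity induces in many tissues, was at 3.21, 3.76 and 5.61 FPKM after saline in the NAc (lowest, median and highest). It was at 6.76, 6.81, 7.50 and 8.23 after haloperidol, all above saline, a mean fold of 1.79 (0.72 ± 0.11, and 0.56 ± 0.11 against saline set I, also called). After methamphetamine it was at 7.25, 6.38, 4.84 and 7.02, with the lowest library inside the saline range, and a fold of 1.56 (0.54 ± 0.11). This call was lost against saline set I (0.38 ± 0.11) and, at 0.48 to 0.53, without methamphetamine replicate 1, 2 or 4 or saline set II replicate 1 or 2. Ketamine, at 6.26, 5.73, 4.45 and 4.40, was not called against all saline libraries (0.29 ± 0.11) but was called against saline set II (0.45 ± 0.11). In that comparison the summed markers of cortical projection neurons, 49.6 to 77.03 against 25.4 to 47.9, and of oligodendrocytes (Mbp, Mog and Mag), 385 to 415 against 302 to 343, also lay wholly above saline set II, and their part in the call was not tested. Mianserin (5.67, 4.31, 5.37 and 4.66), risperidone (4.67, 5.01, 4.58 and 4.68) and venlafaxine (3.70, 2.86, 2.99 and 3.41) overlapped saline.

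In the PFCx the saline level of Dusp6 was 6.39, 7.25 and 7.91 FPKM. Libraries of mianserin were at 13.2, 12.8, 13.9 and 12.4, of methamphetamine at 12.8, 12.9, 12.6 and 11.1, of risperidone at 10.2, 12.5, 10.1 and 10.03 and of haloperidol at 10.05, 9.18, 10.04 and 9.90, all above the saline range. Their means were 1.82-fold (0.79 ± 0.07), 1.72-fold (0.71 ± 0.07), 1.49-fold (0.51 ± 0.07) and 1.36-fold (0.40 ± 0.07) that of saline. The haloperidol call was lost against saline set I (0.37 ± 0.08) and without haloperidol replicate 1 or 4 (0.39). Ketamine (9.24, 6.998, 8.29 and 7.60) and venlafaxine (6.58, 5.68, 5.46 and 7.33) overlapped saline.

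Dusp7, the other cytoplasmic ERK phosphatase, had no call in either tissue. Its libraries spanned 6.33 to 10.3 FPKM over the drugs in the NAc (saline 6.58 to 11.2, differences -0.18 to 0.18) and 10.96 to 19.4 in the PFCx (saline 12.3 to 21.02, differences -0.03 to 0.19), and every drug group overlapped saline. Its differences of at most 0.19 in the PFCx stand beside those of up to 0.79 for Dusp6, and the difference between the genes was not tested.

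Dusp10, which acts on JNK and p38, likewise had no call. It ran at 0.518 to 1.30 FPKM over the drugs in the NAc (saline 0.540 to 1.56) and 0.649 to 1.60 in the PFCx (saline 0.676 to 1.73), with differences of -0.19 to 0.11 and -0.11 to 0.02. Dusp8 of the same substrate class had the 1 lower call, after venlafaxine in the NAc. The venlafaxine libraries were at 8.76, 9.46, 7.94 and 8.46 FPKM against a lowest, median and highest of 9.15, 11.6 and 14.8 after saline, and they overlapped. The mean was 0.735 times that of saline (-0.39 ± 0.09). The call was lost against saline set II (-0.27 ± 0.09) and, at -0.35 to -0.41, without any 1 of the 4 libraries of saline set I or venlafaxine replicate 3 or 4. It changed sign, to 0.121, under the rescaling to the same 75th percentile. Haloperidol (12.3, 13.5, 14.3 and 12.9), risperidone (13.2, 10.9, 12.3 and 13.2), methamphetamine (12.6, 11.95, 11.2 and 10.9), mianserin (8.53, 10.8, 8.78 and 9.81) and ketamine (8.78, 10.8, 9.66 and 10.3) were not called in the NAc. In the PFCx, Dusp8 spanned 7.25 to 12.98 over the drugs (saline 8.11 to 11.04) with no call.

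Dusp14, the small atypical phosphatase and the most abundant member, was higher in the NAc after haloperidol, at 18.1, 17.7, 19.3 and 25.5 FPKM, and after methamphetamine, at 19.3, 15.5, 16.3 and 18.2, against a saline level of 10.5, 12.1 and 13.9 (lowest, median and highest). Neither group overlapped saline. The means were 1.65-fold (0.67 ± 0.09, and 0.67 ± 0.11 against saline set I, also called) and 1.42-fold (0.47 ± 0.09) that of saline. The methamphetamine call was lost against saline set I (0.48 ± 0.11) and without methamphetamine replicate 1 or 4 (0.42 to 0.45). Risperidone (13.7, 13.7, 13.6 and 14.5), mianserin (15.98, 12.5, 10.99 and 12.6), venlafaxine (11.4, 10.4, 10.3 and 12.02) and ketamine (13.8, 13.7, 10.5 and 13.1) overlapped saline. In the PFCx no drug was called, with library values of 18.4 to 27.8 against 15.1 to 21.8 after saline and differences of 0.10 to 0.30. None of its 5 transcripts was called on its own in either tissue.

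**Figure D4:**
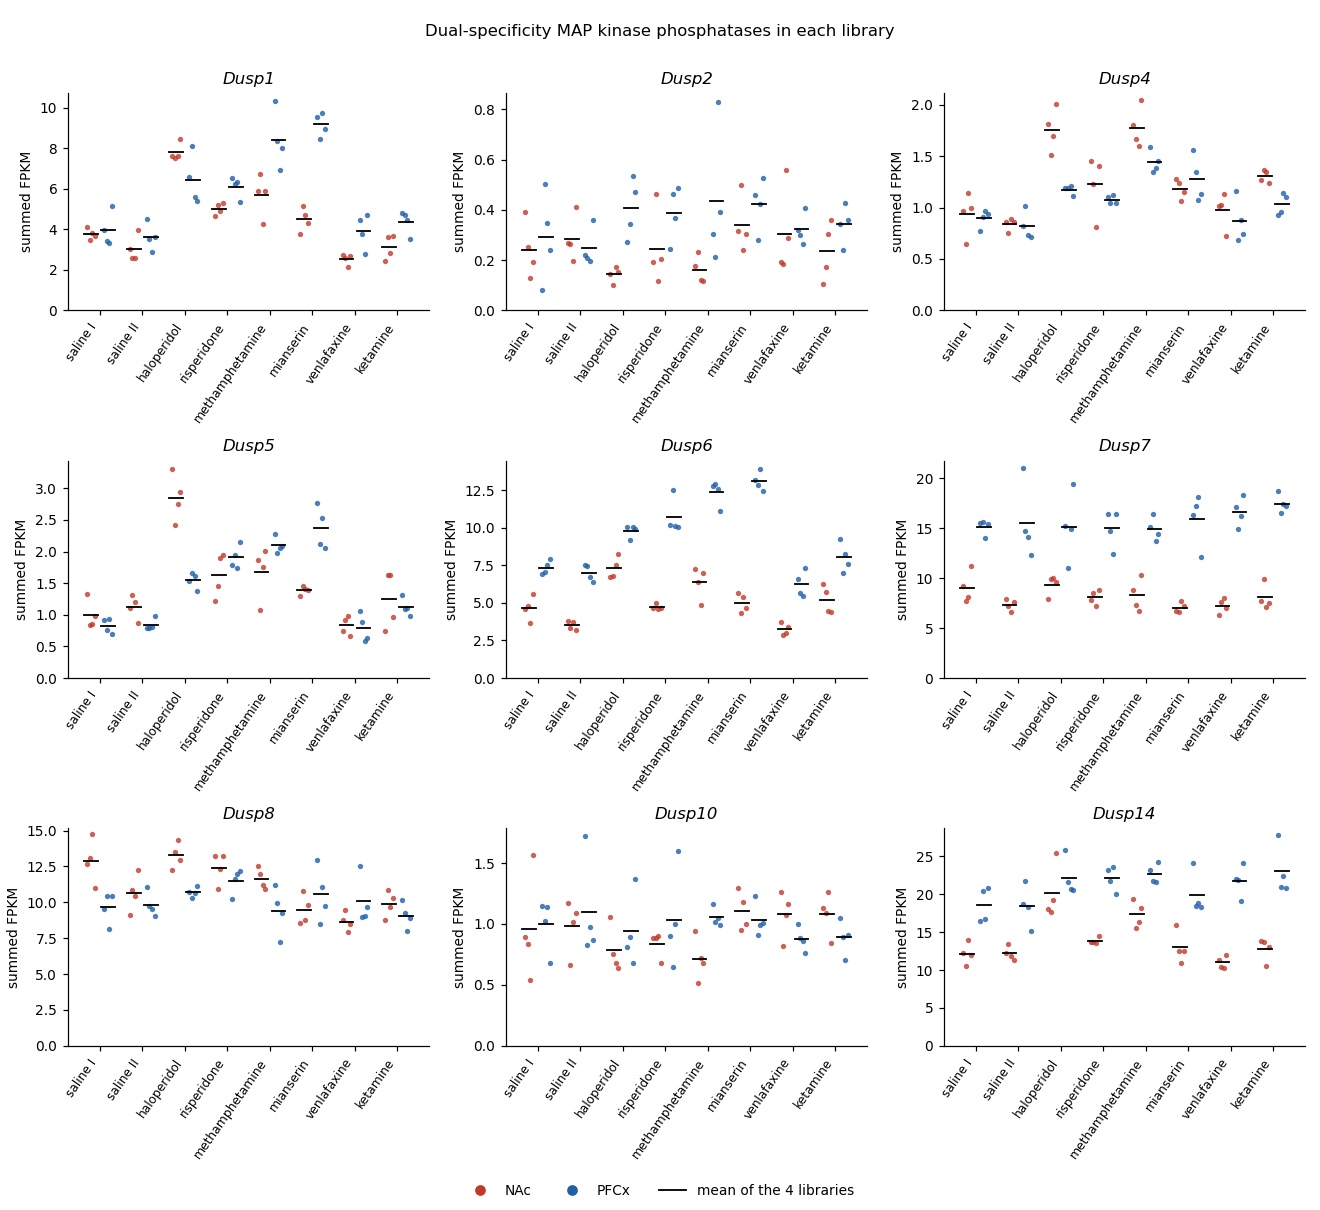
Summed FPKM of each of the 9 genes in all 64 libraries, 1 panel per gene, by treatment, red for the NAc and blue for the PFCx, with saline I and II apart and the mean of 4 libraries as a line. For Dusp5 the haloperidol libraries of the NAc (2.41 to 3.30) and the mianserin libraries of the PFCx (2.06 to 2.76) stand above saline, while Dusp2, Dusp7, Dusp8 and Dusp10 overlap saline for every drug.

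Markers of cortical neurons ran higher in the haloperidol, methamphetamine and ketamine groups of the NAc than in some or all saline libraries. The summed FPKM of the 6 markers of cortical projection neurons was 64.7 to 85.5 after haloperidol, against 52.7 to 71.9 in saline set I and 25.4 to 47.9 in saline set II, although none of the 6 was called. After ketamine it was 49.6 to 77.03, wholly above the saline set II of its own sample set, and again none of the 6 was called. After methamphetamine it was 40.0 to 77.6, overlapping both saline sets, with none of the 6 called. The part of these markers in the methamphetamine differences of Dusp1, Dusp4, Dusp6 and Dusp14 was not tested. The summed FPKM of the 8 markers of medium spiny neurons was 578 to 674 after haloperidol, 579 to 638 after methamphetamine and 422 to 602 after ketamine. Over all saline libraries it was 503 to 692. After haloperidol, Dusp1 ran at 7.51 to 8.43 FPKM in the NAc and at 5.41 to 8.11 in the PFCx. Dusp4 ran at 1.51 to 2.01 and 1.11 to 1.21, and Dusp5 at 2.41 to 3.30 and 1.37 to 1.67. Dusp6 ran at 6.76 to 8.23 and 9.18 to 10.05, and Dusp14 at 17.7 to 25.5 and 20.6 to 25.8. The part of these markers in the haloperidol differences of all these genes was not tested. In the PFCx after mianserin, 1 of the 6 cortical markers was called higher (Neurod2, named here after its values were seen, 10.9 against 7.94 FPKM), and their sum overlapped saline (180 to 225 against 170 to 222). The summed FPKM of the oligodendrocyte markers Mbp, Mog and Mag was 93.2 to 115 there against 76.7 to 105 after saline, and their part in the mianserin differences was not tested. In the NAc it was 377 to 429 in saline set I and 302 to 343 in saline set II, without overlap, and 400 to 429 after haloperidol. The summed markers of astrocytes in the PFCx were 73.6 to 85.5 after mianserin against 69.3 to 92.8 after saline. Markers called in the NAc included Tac1 and C1qa, lower after venlafaxine, and Adora2a, lower after ketamine. Markers of microglia (22.3 to 24.3 against 21.1 to 26.3) and endothelial cells (17.8 to 19.9 against 17.2 to 23.2) had sums within the saline range after haloperidol in the NAc, and astrocyte markers were at 81.7 to 89.8 against 71.1 to 84.9.

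Whether a drug acted differently in the tissues was taken as the PFCx difference minus the NAc difference. For mianserin, Dusp1 (0.77 ± 0.16) and Dusp5 (0.66 ± 0.13) were called, with larger differences in the PFCx, beside 0.119% of all genes called in either direction. Of the means, Dusp1 was 2.42-fold that of saline in the PFCx and 1.32-fold in the NAc, and Dusp5 2.85-fold and 1.31-fold. Dusp6 (0.54 ± 0.13) was not called, at 1.82-fold and 1.22-fold. Against the saline of sample set II, Dusp5 was still called (0.70 ± 0.15) and Dusp1 was not (0.70 ± 0.18). Dusp5 in the PFCx after mianserin had been singled out beforehand, and both fits use the same drug libraries. These calls are therefore a description and no independent support for a tissue difference. Without PFCx mianserin replicate 1 or 3 neither gene was called (0.60 to 0.63 for Dusp5), and Dusp1 was also lost without NAc mianserin replicate 4 (0.75 to 0.76 over the 3). Rescaling to the same 75th percentile moved the all-gene median after mianserin from 0.04 to 0.18 in the NAc and from -0.03 to -0.004 in the PFCx. That rescaling called 6 members higher after mianserin in the NAc, against 0 as deposited, and 4 in the PFCx, as before. The share of all genes called was not computed under it, so these counts have no background beside them. The all-gene median moved more in the NAc than in the PFCx, so the size of the difference between the tissues depends on the scaling. The drug by tissue values under that rescaling are not given here.

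No member was called for another drug, beside 0.0406% of genes for haloperidol, 0% for risperidone, 0% for methamphetamine, 0.0514% for venlafaxine and 0.311% for ketamine. Haloperidol had its values below 0, that is larger differences in the NAc, for Dusp5 (-0.43 ± 0.13), Dusp14 (-0.42 ± 0.13), Dusp1 (-0.38 ± 0.16), Dusp6 (-0.32 ± 0.13) and Dusp4 (-0.32 ± 0.09). For methamphetamine the values were 0.39 ± 0.13 for Dusp5, 0.37 ± 0.16 for Dusp1 and -0.16 ± 0.09 for Dusp4. For risperidone they were 0.32 ± 0.13 for Dusp5 and 0.32 ± 0.13 for Dusp6. A call in one tissue and none in the other, as for Dusp5 after methamphetamine or risperidone, is therefore not shown to be a difference between the tissues.

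**Figure D5:**
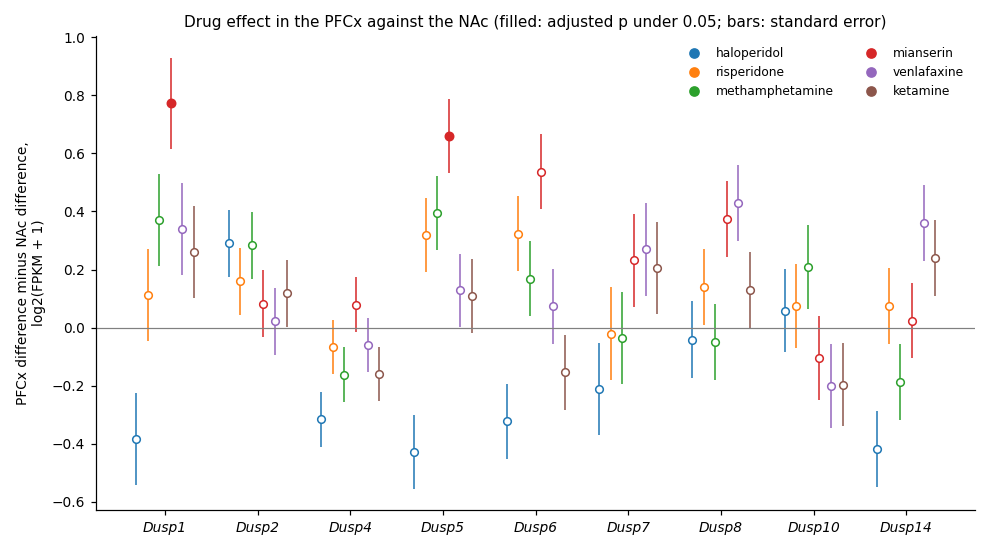
Drug difference in the PFCx minus the drug difference in the NAc for each of the 9 genes and 6 drugs, on the log2(FPKM + 1) scale with standard errors; values above 0 are larger in the PFCx and filled points have an adjusted p under 0.05. The filled points are Dusp1 and Dusp5 after mianserin, at 0.77 and 0.66.

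For the 4 members called in both tissues, the genes with the most similar pattern over the 32 libraries of each tissue were looked up among 14491 genes with a mean of at least 1 FPKM in both tissues, after the mean of each sample set was subtracted. The libraries share their treatments and their depth, so these correlations are a description. For Dusp1 they were Junb (NAc r = 0.90, PFCx r = 0.86), Nr4a1 (NAc r = 0.77, PFCx r = 0.86) and Sik1 (NAc r = 0.78, PFCx r = 0.83). For Dusp5 they were Junb (NAc r = 0.73, PFCx r = 0.88), Sik1 (NAc r = 0.66, PFCx r = 0.91) and Nr4a1 (NAc r = 0.69, PFCx r = 0.88). For Dusp4 they were Nr4a1 (NAc r = 0.83, PFCx r = 0.76), Arc (NAc r = 0.73, PFCx r = 0.79) and Sik1 (NAc r = 0.74, PFCx r = 0.74). For Dusp6 they were Fos (NAc r = 0.85, PFCx r = 0.85), Nr4a1 (NAc r = 0.77, PFCx r = 0.91) and Gm15425 (NAc r = 0.70, PFCx r = 0.87). Junb, Fos and Nr4a1 encode transcription factors of the immediate early response and Arc a synaptic protein of the same response, while Sik1 encodes a kinase induced by cyclic AMP. Among the members, Dusp1 and Dusp5 were most alike (0.71 and 0.88), and the member closest to Dusp6 was Dusp1 (0.64 and 0.90).

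The phosphatases act on the MAP kinases, whose own transcripts were read from a list. Of 23 genes of the MAP kinase cascade, from Ras through Raf and the MAP kinase kinases to the MAP kinases, none was called higher in any of the 12 drug comparisons. In the NAc 2 were called lower after mianserin (beside 0.411% of all genes lower), 1 after venlafaxine (0.727%) and 1 after ketamine (0.535%). All were from the pair Map2k2, a kinase of ERK, and Mapk14, the p38 alpha kinase. None of the 4 was called against saline set II. The list's median difference was 0.00 after haloperidol in the NAc (all genes -0.05) and -0.01 after mianserin in the PFCx (all genes -0.03). Of 15 other dual-specificity phosphatases, 14 were tested and 1 was called in the 12 comparisons. This was Dusp11 after mianserin in the PFCx, at 6.21 against 8.54 FPKM, -0.41 ± 0.09, beside 0.330% of all genes lower. It encodes a phosphatase of RNA and was named after its values were seen. The 3 tyrosine phosphatases of MAP kinases (Ptpn5, Ptpn7 and Ptprr) had no call.

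Among 22 genes of the feedback on ERK and of its targets, 21 were tested. Haloperidol in the NAc had 2 higher, Ier3 and Mknk2, beside 0.527% of all genes higher. Methamphetamine in the PFCx had 3 higher, Spry4, Spred2 and Mcl1, beside 0.270%. Mianserin and venlafaxine had 1 lower each in the NAc, Ier3 both times (beside 0.411% and 0.727% of all genes lower), and the other comparisons had 0. The list's median was 0.09 after haloperidol in the NAc (all genes -0.05), 0.07 after methamphetamine in the PFCx (all genes -0.01) and 0.11 after mianserin in the PFCx (all genes -0.03). Ier3, an immediate early gene that prolongs ERK activity, was at 3.28 against 1.62 FPKM, 0.69 ± 0.11 after haloperidol, at 0.798 against 1.62 FPKM, -0.56 ± 0.11 after mianserin and at 0.940 against 1.62 FPKM, -0.43 ± 0.11 after venlafaxine. Against the saline of the own sample set only the haloperidol call of Ier3 remained among these 3. Spry4, an inhibitor of Ras signalling to ERK, was at 2.06 against 1.28 FPKM, 0.42 ± 0.08 after methamphetamine in the PFCx, and its own-set difference was also called.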

How the data were processed

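Gene expression in 64 libraries of the mouse NAc and PFCx was taken from 1 deposited table per library. The authors depleted ribosomal RNA, sequenced single-end reads on an Ion Torrent platform, aligned them with TopHat2 2.0.1 and then Tmap, and estimated transcripts with Cufflinks 2.2.1 on the Ensembl annotation of GRCm38 (mm10). The authors deposited FPKM, a level scaled to transcript length and mapped fragments, and the coverage signal, the reads over each base without scaling to depth. Cufflinks splits reads shared by isoforms, so isoform values depend on each other. How reads from near-identical copies were counted is not given in the sources used here.

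Tables were joined by transcript, and FPKM was summed per gene symbol. A gene or transcript entered the tests if its mean reached 0.1 FPKM in either tissue (36989 genes and 86331 transcripts), on log2(FPKM + 1), with limma 3.58.1 in R 4.3.3, Benjamini-Hochberg adjustment per comparison and a threshold of 0.05. Each tissue was fitted as 7 treatments over 32 libraries, and the differences between tissues as 14 groups over 64 libraries, with no animal term. Depth was estimated from the ratio between coverage and FPKM, whose median was taken over long transcripts (2000 bases or more, FPKM of 5 or more). Joins and figures used Python 3.11.15. Simulated data with known changes were used to test the limma fits. No 2 libraries held identical values.

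The members, the gene lists and the markers were chosen with earlier results of these data known. All 9 members are named, by library in each tissue where a drug was called and otherwise by range. A gene of the lists is named where called in at least 3 of 12 drug comparisons (Ier3), and the others named were chosen after their values were seen. The genes of similar pattern are the 3 with the highest mean of the correlations in both tissues. Sample sets were read from the number of transcripts above 0 in the NAc. Transcript types and exons are from GENCODE vM21, promoters from RefSeq. As alternatives, the fits used no filter, a pseudocount of 0.1, a mean FPKM of at least 1, own-set saline, a replicate block with and without own-set saline, rescaling to the same 75th percentile, a mean-variance trend, only transcripts of complete status, and leaving out each library. Rescaling over genes above 0 in every library, and rescaling with own-set saline, were added after seeing the data. The reads were not analysed here, and 1 gene is not reported here.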

Additional observations from a re-analysis of the deposited data

Results flagged for a closer look

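For mianserin the difference from saline was larger in the PFCx than in the NAc for Dusp1 (by 0.772 on the log2(FPKM + 1) scale) and for Dusp5 (by 0.659), by the test of the drug by tissue difference in limma. The contrast was among those known when the genes were chosen, so these calls are a description, and the values depend on the scaling of the NAc libraries.

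Single libraries stood apart from the rest of their group in 9 of the 126 groups of member, tissue and treatment, by the gap to the nearest library against the range of the group (each value below stands against the range of the other 3 libraries, or of the other 7 for saline). Chance gives about 1 in 20 such groups. In the NAc these were Dusp1 after haloperidol replicate 4 (8.43 FPKM against 7.51 to 7.62), Dusp10 after risperidone replicate 4 (0.677 FPKM against 0.887 to 0.900) and Dusp14 after risperidone replicate 4 (14.5 FPKM against 13.6 to 13.7). In the PFCx, Dusp6 stood apart after haloperidol replicate 2 (9.18 FPKM against 9.90 to 10.05), methamphetamine replicate 4 (11.1 FPKM against 12.6 to 12.9) and risperidone replicate 2 (12.5 FPKM against 10.03 to 10.2). Replicate 1 of saline set II stood apart for Dusp7 (21.0 FPKM against 12.3 to 15.6) and for Dusp10 (1.73 FPKM against 0.676 to 1.15), and mianserin replicate 1 for Dusp14 (24.1 FPKM against 18.4 to 18.8).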

How the results depend on the processing

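Own-set saline lowered the calls in the NAc from 12 to 7 (7 also when rescaled) and those of the drug by tissue difference from 2 to 1 (1 with the replicate block). It kept 18 of 28 called differences, which are those from saline and the drug by tissue differences together. Its fit with the replicate block gave 7 transcript calls in the PFCx against 12. Rescaling each library to the same 75th percentile of its genes above 0 moved the median difference of all genes in the NAc from between -0.05 and 0.06 to between -0.17 and 0.20, where sample set I lists fewer genes above 0. It kept 18 of 32 called differences, ended all calls of haloperidol, risperidone and methamphetamine in the NAc (0 members each, against 5, 1 and 4) and called 6 members higher there after mianserin, 2 after venlafaxine and 3 after ketamine, so 11 higher and 0 lower in all against 11 and 1. It reversed Dusp8 after venlafaxine (0.121) and Dusp8 between the tissues after saline (0.155). The share of all genes called was not computed under that rescaling. Rescaled over genes above 0 in every library, all 32 kept their call and direction. The replicate block, the mean-variance trend, no filter and complete status kept all 32 as well, a minimum mean of 1 FPKM kept 31 and a pseudocount of 0.1 kept 30. With the replicate block there were 12 calls in the NAc and 14 in the PFCx. Own-set saline with the replicate block gave 9 NAc calls and 11 PFCx calls, and kept 20 of the same 28 differences. Same-numbered libraries of a sample set tended to deviate together: the correlation of deviations was over 0.1 in 40 of 48 same-numbered against 22 of 144 different-numbered pairs in the NAc (medians 0.171 and -0.0744) and in 36 of 48 against 44 of 144 in the PFCx (0.234 and -0.0496), and 52 of 64 libraries correlated best with their own number. This is a hint from the data and not from the labels, and since not every same-numbered pair passed 0.1, the block stayed an alternative. Leaving out 1 library gave 10 to 13 calls in the NAc, 12 to 14 in the PFCx, 0 to 3 for the drug by tissue difference, 4 to 5 between tissues after saline, and 6 to 7 and 10 to 12 transcript calls. It ended a call for 11 of the 32 differences. The tables hold no read counts, so counting error could not be given, and coverage was lowest for Dusp2.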
